A study of Caenorhabditis elegans with 4 samples.

Results

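The 6 vitellogenin genes of Caenorhabditis elegans, vit-1 to vit-6, and rme-2, which encodes the yolk receptor of the oocyte, were examined in worms exposed to nitric oxide (NO). The 7 genes were taken by name from the authors' deposited table, where each had a locus of its own among 16562 loci. The worms were wild type (WT) and had reached L4, the final larval stage. They were grown on E. coli OP50 at 20 °C, and RNA was taken from whole animals. The 2 control libraries carry the agent label control, and the series text calls them untreated. The 2 NO libraries came from worms given 1 mM MAHMA NONOate, which gives off NO once dissolved, and left for 4 h at 20 °C. Controls share this protocol text word for word, which leaves unclear how they were handled and for how long they were left, and the donor compound and the handling cannot be told apart from NO. Each library holds an unstated number of worms of mixed tissues, and nothing in the labels says that the 2 libraries of a group came from separate cultures. The p-values may then measure technical spread. The table gives 1 level per condition, read as FPKM (fragments scaled by transcript length and by library size), so levels of single libraries, their spread and their depth are unknown.

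Vitellogenins are the precursors of yolk. In the hermaphrodite they are made in the intestine around the passage from larva to adult, secreted into the body cavity and taken up by growing oocytes, where they carry lipid and amino acids for the embryo. The products of vit-1 to vit-5 are large yolk polypeptides, and the product of vit-6 is cut into smaller ones. RME-2 belongs to the low density lipoprotein (LDL) receptor family and sits on the oocyte surface, so the ligands and the receptor of this pathway are made in different tissues. In the Ensembl annotation of assembly WBcel235, vit-1 to vit-5 lie on chromosome X, and vit-6 and rme-2 lie on chromosome IV. vit-3 and vit-4 are neighbours on the same strand. The vitellogenin genes have 5 or 6 exons and spliced transcripts of 4870 to 5088 bases, and rme-2 has 7 exons and a spliced transcript of 2867 bases. No source used here gives the build behind the deposited table, and coordinates are therefore left out.

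All 7 genes had lower values after NO than in control, and none passed an adjusted p of 0.05 in the authors' deposited table. Summed over the 6 vitellogenins, the level was 11844 FPKM in control and 8417 FPKM after NO, a ratio of 0.711. Single vitellogenin genes had ratios from 0.579 for vit-4 to 0.782 for vit-2, and rme-2 had a ratio of 0.706. In RNA of whole worms, fewer cells of a type and less RNA per cell cannot be told apart. The table called 66 loci of all 16562, or 0.399%, and 2 lower loci, or 0.0121%, against 0 of the 7 genes here. At an unadjusted p under 0.05, 3 of the 7 genes were lower (vit-1, vit-3 and vit-4), against 56 of all loci, or 0.338%. At that p 0 of the 7 were higher, against 456 of all loci, or 2.75%. At an unadjusted p under 0.01 only vit-4 was lower among the 7, against 17 of all loci, or 0.103%. The first unadjusted count weighs vit-3 and vit-4 as separate genes although they are very similar copies that may share reads.

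The most abundant member was vit-6, the gene whose product is cut into smaller yolk proteins. The authors' deposited table put it at 3948 FPKM in control and 3003 FPKM after NO. These levels held rank 65 of all loci in control and rank 80 after NO. Its log2 fold was -0.39 with a standard error (SE) of 0.37, where every SE follows from the deposited fold and test statistic (unadjusted p = 0.285, adjusted p = 0.99994). The 95% interval of its ratio ran from 0.461 to 1.26 and so took in both a deep reduction and no change. This was the widest interval among the 7 genes on the log2 scale.

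vit-2 and vit-1 encode closely related yolk proteins but differed in level. In the deposited table vit-2 stood at 3032 FPKM in control and 2370 FPKM after NO, the second highest level of the family in both conditions. Its log2 fold of -0.36 (SE 0.26, unadjusted p = 0.167, adjusted p = 0.99994) was the nearest to 0 of the 7. vit-1 was listed at 643 FPKM in control and 416 FPKM after NO, the lowest level among the vitellogenins. Its log2 fold was -0.63 (SE 0.29, unadjusted p = 0.0304, adjusted p = 0.99994), and the interval of its ratio ran from 0.437 to 0.960. The level of vit-2 was 4.72 times that of vit-1 in control and 5.69 times after NO. No source used here says how reads were divided between related vitellogenin genes, and reads of both genes enter their sum. The sum of vit-1 and vit-2 was 3675 FPKM in control and 2786 FPKM after NO, a ratio of 0.758.

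vit-3, vit-4 and vit-5 form the other closely related group, and vit-3 and vit-4 had the lowest ratios of the family. The authors' deposited table put vit-4 at 1248 FPKM in control and 723 FPKM after NO, and its log2 fold was -0.79 (SE 0.31, unadjusted p = 0.00978, adjusted p = 0.690). Its neighbour vit-3 was listed at 1150 FPKM in control and 669 FPKM after NO, a log2 fold of -0.78 (SE 0.30, unadjusted p = 0.0104, adjusted p = 0.715). The intervals of their ratios ran from 0.382 to 0.876 for vit-4 and from 0.385 to 0.880 for vit-3, both below 1. The pair kept nearly the same proportion to each other, with vit-4 at 1.08 times vit-3 in control and 1.08 times after NO. These very similar copies may share reads, and the part of read assignment in that proportion was not tested. The third gene, vit-5, was listed at 1823 FPKM in control and 1235 FPKM after NO, a log2 fold of -0.56 (SE 0.33, unadjusted p = 0.0858, adjusted p = 0.99994). The sum of the 3 genes was 4222 FPKM in control and 2628 FPKM after NO, a ratio of 0.622.

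For the receptor gene rme-2 the deposited table gave 299 FPKM in control and 211 FPKM after NO. Its log2 fold was -0.50 (SE 0.27, unadjusted p = 0.0673, adjusted p = 0.99994), and the interval of its ratio ran from 0.486 to 1.03. Its ratio lay within the range of those of its ligands. The summed vitellogenin level was 39.6 times the rme-2 level in control and 39.8 times after NO. No error is given for this proportion, and whether it was kept was not tested.

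**Figure D1:**
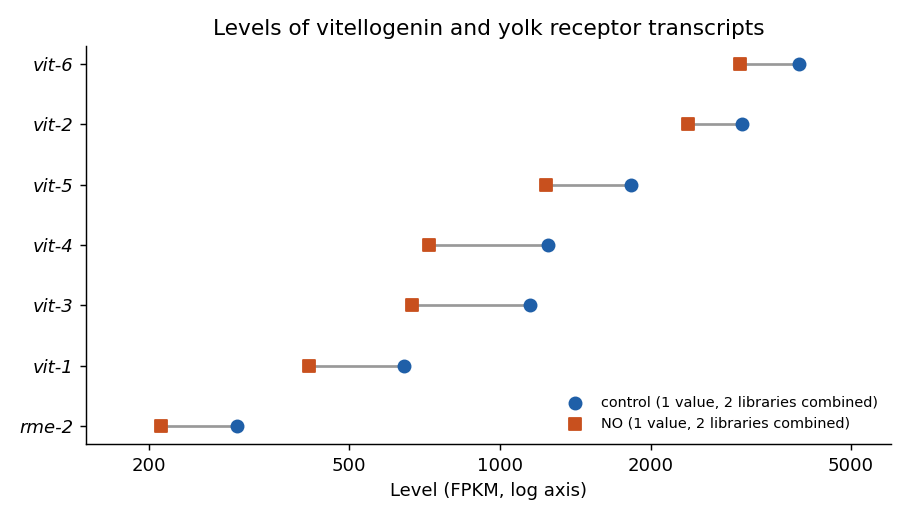
Level of each gene in FPKM on a log axis, with control as circles and NO as squares, and 1 combined value per condition with no error. Every square lies to the left of its circle, from 3948 and 3003 FPKM for vit-6 to 299 and 211 FPKM for rme-2.

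The order of the levels was the same in both conditions. It ran from vit-6 through vit-2, vit-5, vit-4, vit-3 and vit-1 to rme-2. FPKM is scaled by transcript length, so levels of different genes can be set side by side, but with no spread for a level it cannot be said which neighbours in that order differ. By the ratio of their levels, the closest neighbours in both conditions were vit-4 and vit-3, and the farthest apart were vit-1 and rme-2. Within the family total, vit-6 made up 33.3% in control and 35.7% after NO, and vit-2 made up 25.6% and 28.2%. vit-3 and vit-4 together made up 20.3% of the total in control and 16.5% after NO. These shifts in makeup were not tested, since the table gives no error for a share.

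The vitellogenins, whose transcripts are long, held a larger share of levels multiplied by transcript length than of plain FPKM. These shares were taken over different sets of loci, so length is not the only difference between them. The vitellogenins held 0.874% of the FPKM summed over all 16562 loci in control and 0.655% after NO. With each level multiplied by the length of the longest annotated transcript, over 13566 single-gene loci, they held 6.05% in control and 4.60% after NO. By that length-weighted level vit-6 ranked 1, vit-2 ranked 2 and vit-5 ranked 3 among those loci in control, and rme-2 ranked 152. These shares rest on WBcel235 transcript lengths, which may differ from those the authors used.

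None of the differences between control and NO was large enough to pass at the error of the deposited test. The SE of the 7 log2 folds ran from 0.26 to 0.37, close to the median SE of 0.31 among the 380 loci whose mean level reached 500 FPKM. The largest unadjusted p that still passed the adjustment over all loci was 0.000179. At its own SE, vit-4 would have needed a ratio of 0.453 to reach that p, vit-2 a ratio of 0.513 and vit-6 a ratio of 0.384. Missing the threshold therefore does not show that the levels were unchanged. The intervals of all 7 genes overlap one another, and the difference in fold between genes was not tested, since they were measured in the same libraries and the table does not give how their errors move together.

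**Figure D2:**
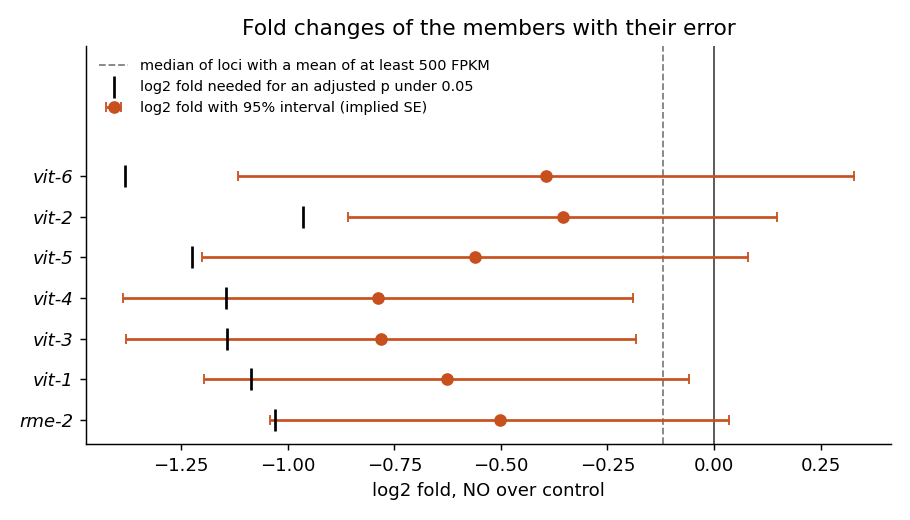
log2 fold of NO over control for each gene, with the 95% interval from the implied SE, and a black tick where the fold would have had to lie for an adjusted p under 0.05. All 7 points lie left of 0 and right of their ticks, and the intervals of vit-1, vit-3 and vit-4 end below 0.

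Abundant genes as a whole had values slightly below 0, and the vitellogenins lay further below. Of the 380 loci whose mean reached 500 FPKM, 312 had a log2 fold below 0, or 82.1%, and 53.7% of the 14285 loci whose mean reached 1 FPKM did, so that the shared sign of the vitellogenins is close to the background at their level. The median log2 fold of the 380 loci was -0.12, against -0.59 over the 6 vitellogenins. A log2 fold as low as that of vit-4 was held by 7 of the 380 loci, itself included, as low as that of vit-5 by 11 and as low as that of vit-2 by 42. At an unadjusted p under 0.05, 6 of the 380 loci were lower after NO, or 1.58%, and 3 were higher, or 0.789%. The 6 lower loci were vit-4, vit-3, vit-1 and the cuticle collagen genes col-101, col-143 and col-8. For col-101 the authors' deposited table gave 743 FPKM in control and 375 FPKM after NO (log2 fold -0.99, SE 0.28, adjusted p = 0.0920), and it was named after its values were seen.

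**Figure D3:**
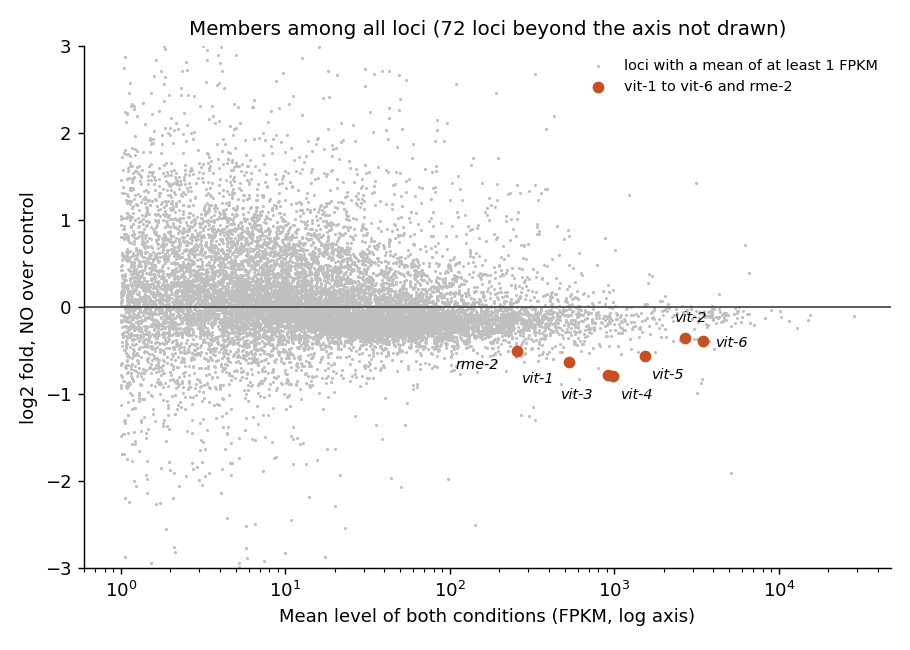
log2 fold of NO over control against the mean level in FPKM on a log axis, with 1 gray point per locus above 0 in both conditions and with a mean of at least 1 FPKM (13670 drawn, 72 beyond the axis) and the 7 genes in orange. The vitellogenins lie in the lower part of the cloud of abundant loci, from -0.36 for vit-2 to -0.79 for vit-4. Of the 380 loci whose mean reached 500 FPKM, 42 lay at or below vit-2 and 31 at or below vit-6, these genes included.

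Genes of the oocyte, the cell that makes RME-2, had lower values together with rme-2, while genes of the intestine, where vitellogenins are made, did not share one direction. Of 19 measured oocyte, germline and eggshell genes 0 were called. All 19 had a log2 ratio below 0 after adding 1 FPKM to each condition. Below 0 were also 53.7% of the 14285 loci whose mean reached 1 FPKM and 82.1% of the 380 loci whose mean reached 500 FPKM. The median of the 19 was -0.44, against -0.03 over those 14285 loci. Loci of at least 100 FPKM had a median log2 fold of -0.14. The 3 other scalings tried subtract the same value from every fold, and that value was never further from 0 than this -0.14. The fold of the 19 nearest 0 was -0.18, for gld-1, so all 19 log2 folds could only stay below 0. Their median was -0.31 when centred on loci of at least 100 FPKM. Their summed level was 6956 FPKM in control and 5107 FPKM after NO, none was at 0, and 1 was lower at an unadjusted p under 0.05. That gene was cbd-1, which encodes a chitin-binding protein of the eggshell, which the authors' deposited table put at 419 FPKM in control and 272 FPKM after NO (log2 fold -0.62, SE 0.29, unadjusted p = 0.0292, adjusted p = 0.99994). The 5 most abundant were the permeability barrier genes perm-2 and perm-4 (log2 folds -0.52, SE 0.27, and -0.44, SE 0.27), the eggshell proteoglycan gene cpg-1 (-0.51, SE 0.36), the translational repressor gene gld-1 (-0.18, SE 0.32) and pos-1 (-0.52, SE 0.28), whose zinc finger protein binds maternal RNA. Of the 19 genes, 6 had a lower log2 fold than rme-2. Set against the vitellogenins, 15 of the 19 lay below vit-2, 13 below vit-6 and 2 below vit-5. For vit-1, vit-3 and vit-4 that count was 0. The part of the oocyte genes in the rme-2 value was not tested.

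Within the LDL receptor family, the 3 oocyte genes had lower values and the other 2 had values near 0. egg-1 and egg-2 encode oocyte surface proteins needed for fertilization, and like rme-2 they have LDL receptor repeats. The authors' deposited table put egg-1 at 299 FPKM in control and 214 FPKM after NO (log2 fold -0.48, SE 0.33). It put egg-2 at 122 and 83.9 FPKM (log2 fold -0.54, SE 0.30). lrp-1, the megalin-like receptor of the epidermis, was listed at 3.19 and 3.24 FPKM (log2 fold 0.02, SE 0.36) and lrp-2 at 4.78 and 5.04 FPKM (log2 fold 0.08, SE 0.33). Of the 5 genes, rme-2 included, 0 were called and 0 passed an unadjusted p under 0.05 in the deposited table.

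Of 11 measured intestine genes 0 were called, 4 had log2 ratios above 0 and 7 below, and the median was -0.05. Centred on loci of at least 100 FPKM, 8 lay above 0 and 3 below, so their sign depended on the scaling. Their summed level was 2265 FPKM in control and 2226 FPKM after NO, with none at 0. In control and after NO, the authors' deposited table put the metallothionein gene mtl-2 at 499 and 485 FPKM and the intestinal actin gene act-5 at 544 and 424 FPKM. It put the cathepsin B gene cpr-6 at 502 and 427 FPKM and the intermediate filament gene ifb-2 at 165 and 230 FPKM. cpr-1, another cathepsin B gene, was listed at 206 and 338 FPKM (log2 fold 0.72, SE 0.29, unadjusted p = 0.0121, adjusted p = 0.776) and was the 1 gene of this list past an unadjusted p of 0.05. The log2 folds of vit-1, vit-3, vit-4, vit-5, vit-6 and rme-2 were below those of all 11 intestine genes, and 2 of the 11 lay below vit-2. For vit-6 the margin was far smaller than the error, at -0.395 (SE 0.369) against -0.387 (SE 0.357) for the intestine gene pho-1. These differences in fold were not tested.

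Regulators of vitellogenin transcription were not called, and their values scattered around 0. Of 15 measured genes 7 had log2 ratios above 0 and 8 below, with a median of 0.00 to 2 decimals, and 0 passed an unadjusted p under 0.05. The scaling between conditions sets the sign of several of these values, since 12 of the 15 lay above 0 when folds were centred on loci of at least 100 FPKM. UNC-62 and CEH-60 are homeodomain proteins that activate vit genes in the intestine. The authors' deposited table put unc-62 at 28.7 FPKM in control and 26.8 FPKM after NO (log2 fold -0.10, SE 0.72). It put ceh-60 at 16.1 and 19.6 FPKM (log2 fold 0.29, SE 0.46). elt-2, the main GATA factor of the intestine and a member of both this list and the intestine list, was listed at 14.6 and 15.7 FPKM (log2 fold 0.10, SE 0.42). mab-3, which keeps vit genes off in the male intestine, was low at 1.72 and 0.870 FPKM (log2 fold -0.98, SE 0.94). The 5 most abundant of the list were vrp-1 (listed as Y54G2A.3, log2 fold -0.19, SE 0.37), daf-16 (-0.06, SE 0.40), pqm-1 (0.57, SE 0.48), the kinase gene sgk-1 (0.01, SE 0.38) and unc-62. DAF-16 and PQM-1 are transcription factors under insulin signalling. lin-29, a timing factor of the passage to the adult, was listed at 6.13 FPKM in both conditions with an SE of 1.70, too large to bound a change.

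The machinery that carries yolk into the oocyte is used by many cell types. log2 ratios of all 23 measured endocytosis genes lay below 0, the median was -0.19, and 0 were called. With folds centred on loci of at least 100 FPKM, 8 lay above 0 and 15 below, so the shared sign depended on the scaling, while rme-2 stayed at -0.36. The most abundant in the authors' deposited table were rab-11.1, of recycling endosomes, at 661 FPKM in control and 621 FPKM after NO, the polarity GTPase gene cdc-42 at 269 and 246 FPKM, and rme-1, which acts in endocytic recycling, at 216 and 205 FPKM. The clathrin light chain gene clic-1 and the late endosome gene rab-7, both in loci joined with another gene, had log2 folds of -0.19 (SE 0.30) and -0.10 (SE 0.51). The caveolin gene cav-1, the 1 gene of the list past an unadjusted p of 0.05, was listed at 14.1 and 7.01 FPKM (log2 fold -1.01, SE 0.50, unadjusted p = 0.0452, adjusted p = 0.99994).

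Other carriers of lipid, made in the intestine and elsewhere, were not called. Of 17 lipid carrier genes whose mean reached 1 FPKM 0 were called, 5 had log2 ratios above 0 and 12 below, and the median was -0.17. Their sum was 11712 FPKM in control and 10405 FPKM after NO. The vitellogenin sum was close to it in control, at 11844 FPKM, and lower after NO, at 8417 FPKM. The authors' deposited table put far-2, a fatty acid and retinol binding protein gene, at 6226 FPKM in control and 5529 FPKM after NO (log2 fold -0.17, SE 0.28). It put far-1, of the same family, at 1514 and 1533 FPKM (log2 fold 0.02, SE 0.29). The lipid binding protein genes lbp-9 and lbp-6 had log2 folds of -0.27 (SE 0.29) and -0.34 (SE 0.27), and lbp-2 had a log2 fold of -0.35 (SE 0.29). dsc-4, which encodes the microsomal triglyceride transfer protein that loads lipid onto secreted lipoproteins, was listed at 34.6 and 31.8 FPKM (log2 fold -0.12, SE 0.32). lbp-8, a lysosomal lipid binding protein gene, was listed at 4.57 and 1.47 FPKM (log2 fold -1.64, SE 0.77, unadjusted p = 0.0322, adjusted p = 0.99994), the 1 gene of the list past an unadjusted p of 0.05.

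**Figure D4:**
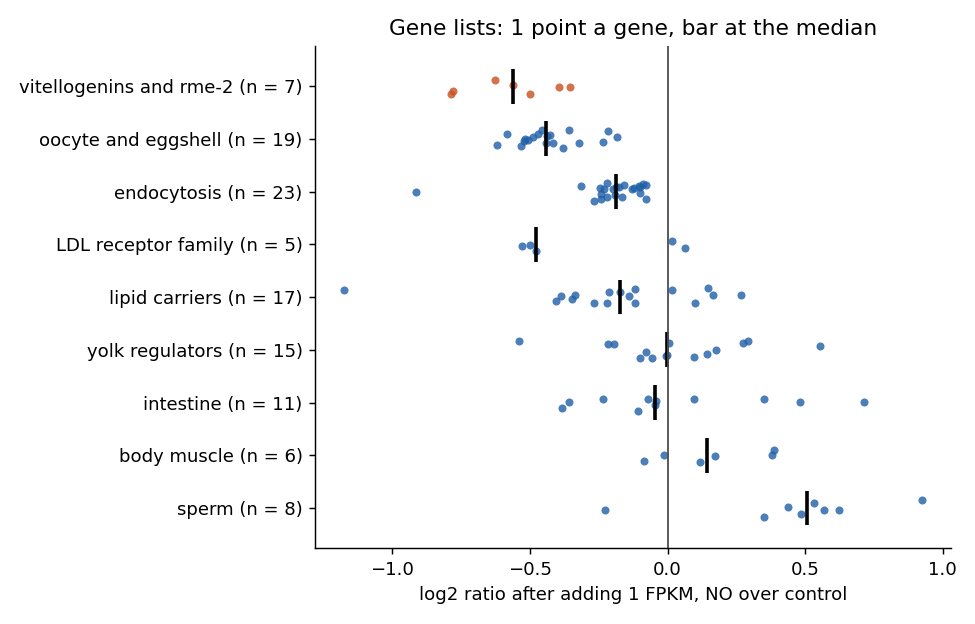
log2 ratio of NO over control after adding 1 FPKM to each condition, with 1 point per gene of at least 1 FPKM and a bar at the median of each list. The oocyte list has its median at -0.44 with all 19 points below 0, the intestine list at -0.05 and the sperm list at 0.51.

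Genes of other tissues and of developmental timing gave the remaining context for a whole-worm measurement. Of 8 sperm genes 0 were called, 7 had log2 ratios above 0 and the median was 0.51, with a median SE of 0.57. Only 3 of the 8 had a mean of at least 10 FPKM, 2 of them above 0 and 1 below. The sum of the 8 genes was 93.8 FPKM in control and 121 FPKM after NO. The most abundant of these in the authors' deposited table was spe-11, whose product is brought to the egg by sperm, at 36.8 FPKM in control and 50.2 FPKM after NO (log2 fold 0.45, SE 0.39), and spe-4, a presenilin-like gene of spermatogenesis, at 6.23 and 12.7 FPKM, was the 1 past an unadjusted p of 0.05 (log2 fold 1.03, SE 0.50, unadjusted p = 0.0379, adjusted p = 0.99994). Of 6 body muscle genes 0 were called, with a median of 0.14. Adult cuticle collagen genes pointed in different directions, with col-19 at 2294 and 1808 FPKM (log2 fold -0.34, SE 0.27) and col-7 at 311 and 436 FPKM (log2 fold 0.49, SE 0.28). Of 6 molting genes above 1 FPKM 0 were called, 3 had log2 ratios above 0 and 3 below. The molting regulator gene nhr-23 was listed at 34.7 and 30.9 FPKM and mlt-8 at 5.19 and 14.0 FPKM (log2 fold 1.43, SE 0.72, unadjusted p = 0.0482, adjusted p = 0.99994). Vitellogenin levels depend on the stage of the worm, and the part of any stage difference in these values was not tested.

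The loci most like the vitellogenins were taken as the 5 with a log2 fold nearest to their median of -0.59, among 1781 other loci whose mean reached 100 FPKM. With 1 value in each of 2 conditions, likeness is only a like fold. They were nspa-1 and nspa-3, for which the authors' deposited table held identical values (509 FPKM in control and 336 FPKM after NO, log2 fold -0.60, SE 0.75), spn-4 (459 and 306 FPKM, log2 fold -0.58, SE 0.33), the glutamine synthetase gene gln-3 (121 and 81.3 FPKM, log2 fold -0.58, SE 0.38) and rmd-1 (303 and 204 FPKM, log2 fold -0.57, SE 0.33). spn-4 encodes a maternal RNA-binding protein and is also in the oocyte list. None of the 5 was called. Of the 1781 loci, 28 had a log2 fold at or below the vitellogenin median, or 1.57%.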

How the data were processed

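RNA was extracted with Trizol and made into libraries with the Illumina TruSeq RNA kit, per the labels' protocols. The submitters' processing notes name Cufflinks 2.0.5, TopHat2 2.0.2 and R 2.15.2. No source used here gives their settings, the build, the annotation or the scaling. The authors deposited 1 table with a control and an NO value per locus, per the file headers. These values of the authors, deposited without a unit, were read as FPKM, scaled by transcript length and library size, from the Cufflinks layout. Multiplied by transcript length in kilobases they summed to 973621 in control and 910820 after NO over single-gene loci. The 1230 joined loci, among others, are not in these sums. FPKM scaled by all fragments would sum to 1000000 over all loci, so this is only a rough check of the unit. The deposited fold is the ratio of NO to control, and its log2 has a placeholder at values of 0. The authors' deposited statistic, a score, has the opposite sign. The deposited p-value is its normal two-sided tail, within 0.001, for all 15621 loci above 0 in both conditions, and the adjusted p is a Benjamini-Hochberg adjustment over all 16562 loci.

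Replicates had been combined before deposit, so limma, fixed for single libraries, could not be run, and a call means a deposited adjusted p under 0.05. The SE is the log2 fold divided by the test statistic, which covers what the authors' model took as error. Depth is unknown, so no counting interval is given. List ratios add 1 FPKM, which understates changes of low genes, over loci whose mean reached 1 FPKM. Sequence names were matched to symbols through RefSeq and Ensembl tables of WBcel235, and par-3, asp-1, pept-1, cpg-2, spe-44, bli-2 and mlt-11 were not analysed here. The members and lists were chosen with earlier results of these data known. Text names all members and, of each main list, any called gene and up to 5 by level. Further names were picked with values known. Alternatives changed the threshold, adjustment, pseudocount, scaling and level filter. Calculations ran in Python 3.11.15 with pandas 2.3.3 and scipy 1.17.1 and were tested on simulated data.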

Additional observations from a re-analysis of the deposited data

How the results depend on the processing

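The count of 0 called members was read from the deposited test. At an adjusted p of 0.01, or with a minimum fold of 2, it could only be 0 again. At 0.1 it was also 0, since the lowest deposited adjusted p of a member was 0.690, for vit-4. It was also 0 after adjusting again over loci of at least 1 FPKM or without joined loci. The lowest adjusted p under these last 2 was 0.650 and 0.649, both for vit-4. With no adjustment 3 members passed 0.05, and that test sets the deposited folds against 0. The 95% interval of the vit-1 log2 fold, from -1.20 to -0.06, took in the median of loci of at least 100 FPKM, -0.14. The count of 3 therefore depends on the scaling. The intervals of vit-3 and vit-4 ended below that median, at -0.18 and -0.19. Centred on those loci, vit-4 moved from -0.79 to -0.65 (SE 0.31), so its pass at an unadjusted p of 0.01 also depends on the scaling. No p-value was computed again after centring. All 35 log2 folds of members recomputed with 1 or 0.1 FPKM added, with other centring or as shares of the summed values stayed below 0, from -0.79 to -0.22, and each moved by less than its SE. Centring subtracted -0.04 (loci of at least 1 FPKM) or -0.14 (at least 100 FPKM), and the summed values differed by -0.08 on the log2 scale. The member fold nearest 0 was -0.36 for vit-2, which also had the smallest SE, 0.26. Shifts this small could not turn a sign or exceed an SE, and adding 1 FPKM or less hardly moves such high levels. These settings therefore give no separate evidence for the shared direction. Centred on loci of at least 100 FPKM, the vitellogenin median was -0.46. The family sum, -0.49 on the log2 scale, was -0.41 as shares of the summed values and -0.54 without vit-6. With no minimum level the adult cuticle median moved from 0.07 to 0.49 and the molting median turned from -0.04 to 0.07, since these settings admit genes under 1 FPKM. The intestine median of the deposited log2 folds, -0.05, turned to 0.09 when centred on loci of at least 100 FPKM and to 0.03 as shares of the summed values, and stayed at -0.01 when centred on loci of at least 1 FPKM. The molting median of the deposited log2 folds, -0.03, turned to 0.01, 0.11 and 0.05 when centred on loci of at least 1 FPKM, of at least 100 FPKM and as shares of the summed values. The yolk regulator median, 0.00, turned to 0.04, 0.14 and 0.08 under the same 3 scalings. No paired analysis was possible because the table holds 1 combined value per condition, and leaving out replicates was not run for the same reason.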
